A study of Homo sapiens with 4 samples.

Results

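The receptor CD30 and its ligand CD30L are encoded by TNFRSF8 and TNFSF8. Both genes were taken by symbol from each of the 4 deposited gene tables, on their own strand (sense) and on the opposite strand (antisense), and they are 2 of 22798 genes with a sense entry. The assay was Bru-seq: cells take up bromouridine, and antibody capture of the RNA that holds it makes the reads a measure of recent transcription. The cells were Karpas 299, an established T cell line from an anaplastic large cell lymphoma, a tumour defined by surface CD30. Every library had 3 h of treatment, with bromouridine present for the last 30 min.

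The 4 libraries belong to 2 experiments, with 1 library per condition. In the drug experiment, the control received DMSO, a solvent, and the other library SM-164, a synthetic Smac mimetic directed at inhibitor of apoptosis (IAP) proteins. In the receptor experiment, cells were laid on Chinese hamster ovary (CHO) cells as a negative control or on CD30L+ CHO cells, which present the ligand, and were collected by gentle pipetting. The line comes from 1 tumour, and the CHO cells of the last library carry CD30L themselves. The dose of SM-164 and the species of the CD30L sequence in the CHO cells are not given in the sources used here. Without repeats, no test between conditions was possible, differences lack a replicate check, and every interval covers counting error only.

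CD30 is a member of the tumour necrosis factor (TNF) receptor superfamily without a death domain. On binding CD30L, its cytoplasmic tail recruits TRAF adaptor proteins, with which the ubiquitin ligases c-IAP1 and c-IAP2 are associated, and both the canonical and the non-canonical NF-kB pathways can follow. In normal tissue CD30 is found on some activated lymphocytes, and CD30L on activated T cells and several myeloid cells. In lymphoma, CD30 is known as a marker and as the target of an antibody-drug conjugate.

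Library totals were 31030478 reads for DMSO, 26217586 with SM-164, 45885628 on CHO cells and 45535360 on CD30L+ CHO cells. Levels are given as RPKM, reads scaled to the counted length of a gene and to the library total, over exons and introns together. The lymphoma label was checked on 7 markers, of which TNFRSF8 itself is 1. An RPKM of 0.5 was reached in each library by 5 of them, TNFRSF8 included. ALK (0.0966 to 0.137, averaged over 728838 bases) and MUC1 (0.208 to 0.453) did not reach it. The B cell gene MS4A1 had 0 reads in every library, and the 6 B cell markers summed to an RPKM of 0.292 to 0.394, nearly all of it from PAX5. The 6 myeloid markers summed to 1.00 to 1.46. Of these, CSF1R reached an RPKM of 0.5 in each library (0.653 to 0.752) and LYZ on CHO cells only (0.600).

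TNFRSF8 lies on the forward strand of chromosome 1 from 12123434 to 12204264 (hg19), and all of its 80831 bases were counted. TNFSF8 lies on the reverse strand of chromosome 9 from 117655623 to 117692875 (hg19), with 37253 counted bases. The promoter sequence table of RefSeq (build GRCh38.p14) held 1 of the 2 genes, TNFRSF8. Its sequence is shown because TNFRSF8 was among the most transcribed receptor genes of these cells. The line below runs from 250 bases before to 30 bases after the start, chr1:12063053-12063332 on the forward strand of GRCh38.p14, with motif matches in capitals.
TNFRSF8 promoter: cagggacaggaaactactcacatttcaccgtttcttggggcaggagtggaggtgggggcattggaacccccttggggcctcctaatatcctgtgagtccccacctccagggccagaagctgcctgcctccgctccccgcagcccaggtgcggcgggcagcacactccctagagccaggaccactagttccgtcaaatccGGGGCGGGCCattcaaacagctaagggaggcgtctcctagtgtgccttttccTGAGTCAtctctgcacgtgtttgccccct
Both strands were searched for 3 motifs. The AP-1 motif TGANTCA, bound by JUN and BATF family proteins, had 1 match, TGAGTCA, whose first base is base 2 after the start. Such a match was found in 7.38% of 27305 promoter windows of this length. The GC box GGGCGG, bound by SP1, had 1 match at base -50, and 43.7% of the windows hold one. The kB motif GGGNNNNNCC had 1 match at base -51, which overlaps the GC box, and 56.0% of the windows hold one. A match is a description of the letters only, and whether any factor acts through it in these cells was not tested.

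TNFRSF8 was heavily transcribed in every library and was far higher in the drug experiment than in the receptor experiment. Its RPKM was 9.59 with DMSO (95% Poisson interval 9.47 to 9.71), 12.3 with SM-164 (12.2 to 12.5), 4.97 on CHO cells (4.90 to 5.04) and 5.10 on CD30L+ CHO cells (5.03 to 5.17). These values rest on 24060, 26168, 18436 and 18775 reads in the same order. The order of levels was therefore SM-164, DMSO, CD30L+ CHO and CHO, and only the intervals of the last pair overlapped.

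By RPKM, the gene ranked 334 with DMSO, 233 with SM-164, 624 on CHO cells and 619 on CD30L+ CHO cells among 21187 genes with at least 300 counted bases. By reads, which favour long genes, it ranked 69, 52, 274 and 288. It took 0.0775% of all library reads with DMSO, 0.0998% with SM-164, 0.0402% on CHO cells and 0.0412% on CD30L+ CHO cells.

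**Figure D1:**
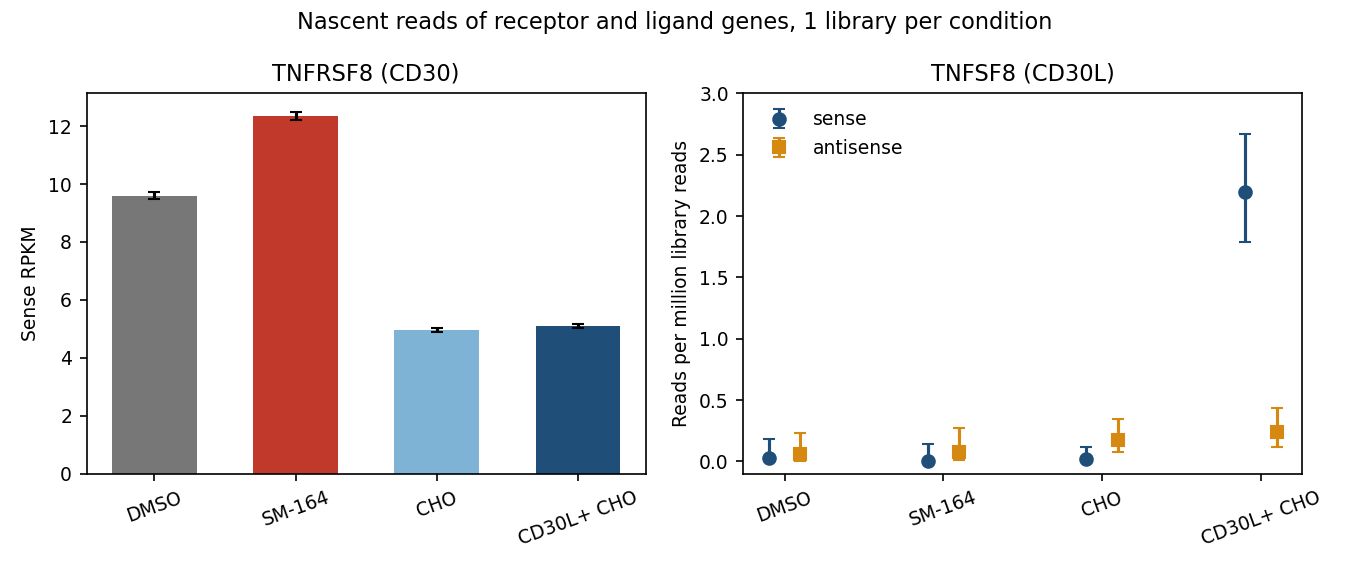
Left, sense RPKM of TNFRSF8 in the 4 libraries as bars from 0; right, sense (circles) and antisense (squares) reads of TNFSF8 as RPM (scaled to the library total); error bars are two-sided 95% Poisson intervals of 1 library each. TNFRSF8 stands at 9.59 and 12.3 in the drug experiment and near 5 in both co-cultures, while sense reads of TNFSF8 stand clear of 0 on CD30L+ CHO cells only.

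TNFSF8 was close to silent in 3 libraries and was read on CD30L+ CHO cells. It had 1 read with DMSO, 0 reads with SM-164, 1 read on CHO cells and 100 reads on CD30L+ CHO cells. The corresponding RPKM values were 0.000865, 0, 0.000585 and 0.0590, and the 95% Poisson interval of the last was 0.0480 to 0.0717. With SM-164, a count of 0 allows up to 3 reads as a one-sided limit, an RPKM of 0.00307. Even on CD30L+ CHO cells the ligand gene stayed under the RPKM of 0.5 required of genes compared across the table, and its level per base was about that of the neighbouring TNFSF15 (0.0531).

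The ratio of TNFSF8 on CD30L+ CHO cells to CHO cells was 101, with a counting interval from 17.7 to 4019 because the control rests on 1 read. The width of that interval leaves the size of the difference poorly known, and its lower bound still lies far above 1. For the drug comparison, 0 reads against 1 could not show a difference at this depth.

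How many other genes share this pattern was counted over all 22798 genes. TNFSF8 was the 1 gene with at most 3 reads in each of DMSO, SM-164 and CHO and at least 30 on CD30L+ CHO cells. With DMSO, SM-164 or CHO as the library with reads, the same limits gave 0 genes each. The limits were set with the reads of TNFSF8 known, so the count describes how rare the pattern is and tests nothing.

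Under looser limits a few genes joined it. With at most 10 reads elsewhere, 5 genes had at least 30 on CD30L+ CHO cells: TNFSF8, the acetylcholine receptor subunit gene CHRNA1 (51 reads there against 2 on CHO cells), the early growth response gene EGR2 (48 against 7), the tetraspanin gene TSPAN2 (40 against 10) and LOC645431 (35 against 9). With CHO as the library with reads, those limits gave 3 genes. With at most 3 reads elsewhere and at least 10 on CD30L+ CHO cells, 6 genes were found, against 27 for CHO, so this looser pattern was not particular to the ligand library.

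The reads of TNFSF8 on CD30L+ CHO cells cannot be assigned to exons or introns in these tables, and that culture held CHO cells that carry CD30L. Whether any of the 100 reads came from CHO cells collected with the lymphoma cells was not tested. For description only, 14 marker genes of adherent epithelial or stromal cells summed to an RPKM of 2.24 with DMSO, 1.62 with SM-164, 1.16 on CHO cells and 0.762 on CD30L+ CHO cells. In the CD30L+ CHO library 0 of the 14 reached an RPKM of 0.5, and 4 had 0 reads. Those reads were aligned to the human genome, so the sum measures hamster RNA only as far as it aligns there. It was higher in the drug experiment, which had no CHO cells, so it cannot serve as a measure of carried-over cells.

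The opposite strand separated the 2 genes clearly. Antisense reads of TNFRSF8 numbered 26 with DMSO, 31 with SM-164, 16 on CHO cells and 29 on CD30L+ CHO cells. They were 0.108%, 0.118%, 0.0867% and 0.154% of the reads on both strands. The medians over expressed genes were 0.353%, 0.394%, 0.433% and 0.356%, so TNFRSF8 was transcribed almost purely in its own direction. This was not particular to it, since 31.0% to 39.9% of expressed genes had a still lower share.

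Antisense reads of TNFSF8 numbered 2 with DMSO, 2 with SM-164, 8 on CHO cells and 11 on CD30L+ CHO cells. Sense reads were thus fewer than antisense reads in 3 libraries and 100 against 11 on CD30L+ CHO cells. The antisense ratio of the co-cultures was 1.39 (0.508 to 3.97), whose interval includes 1. The antisense share of TNFSF8 on CD30L+ CHO cells was 9.91% (exact binomial interval 5.05% to 17.0%), against 88.9% on CHO cells (51.8% to 99.7%), the latter from 9 reads in all.

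The flanking genes of TNFSF8 did not show its difference between the co-cultures. Upstream of TNFSF8, the matrix glycoprotein gene TNC, 89.0 kb away, had 171 reads on CHO cells and 179 on CD30L+ CHO cells, a ratio of 1.05 (0.851 to 1.31). Downstream, the TNF ligand gene TNFSF15, 87.2 kb away, had 79 and 52 reads, a ratio of 0.663 (0.458 to 0.953). The ligand gene was thus the lowest of the 3 on CHO cells and, at 0.0590, level with or above the others on CD30L+ CHO cells.

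Around TNFRSF8, the gene itself stood above all of its neighbours in every library. The nearest upstream gene, MIIP (31.3 kb), was at an RPKM of 0.989 with DMSO, 1.02 with SM-164, 0.962 on CHO cells and 0.655 on CD30L+ CHO cells. The nearest downstream gene, TNFRSF1B (22.8 kb), which encodes TNF receptor 2, was at 0.634, 0.649, 0.775 and 0.821. The lower level of TNFRSF8 in the co-cultures was not seen in TNFRSF1B, whose ratio of CHO to DMSO was 1.22 (1.12 to 1.33).

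**Figure D2:**
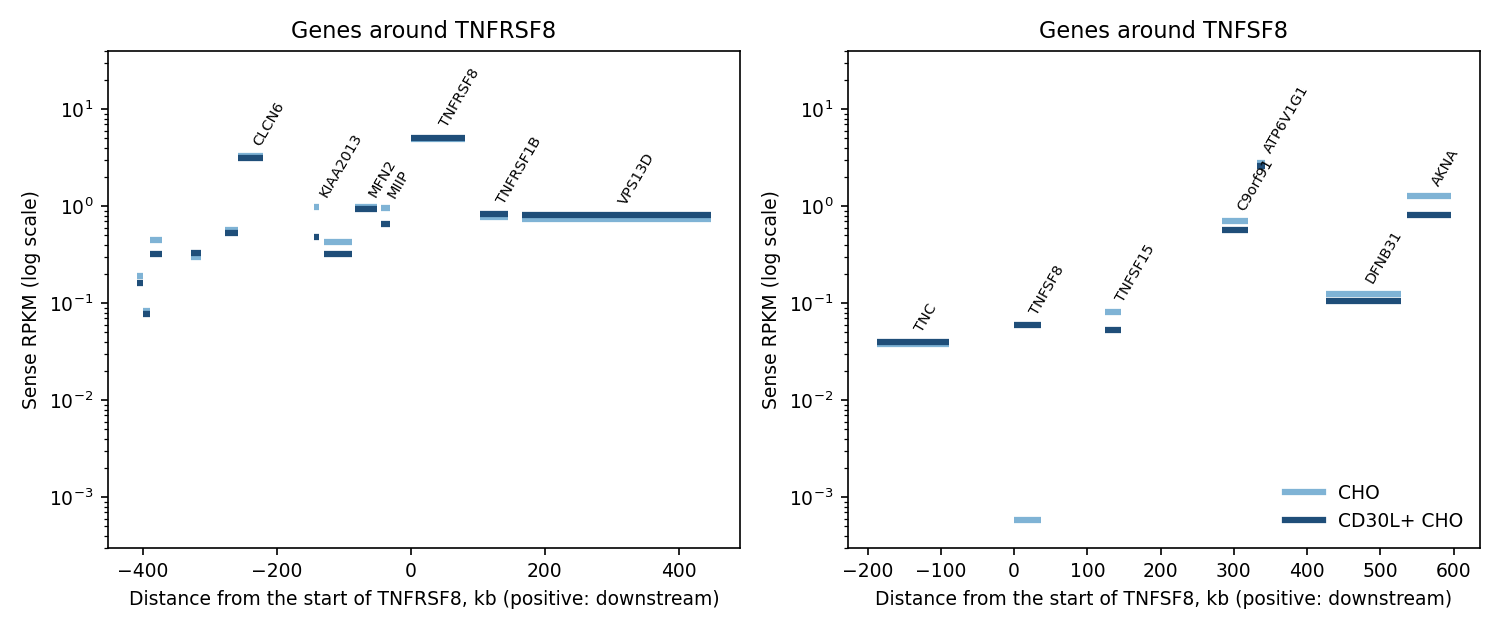
Sense RPKM (log scale) of genes within 500 kb of TNFRSF8 (left) and TNFSF8 (right) on CHO cells (light) and CD30L+ CHO cells (dark), drawn as bars from start to end against the distance from the start of each gene in kb; genes with a mean RPKM under 0.01 are left out. TNFSF8 is far apart between the co-cultures, at 0.000585 and 0.0590, while TNC and TNFSF15 beside it are close together.

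With SM-164, TNFRSF8 was modestly higher. The ratio to DMSO was 1.29 (1.26 to 1.31), a log2 ratio of 0.36 on log2(RPKM + 0.25). This was above 97.7% of 7881 tested genes, those of 300 or more counted bases whose RPKM averaged 0.5 or more in the pair of libraries. The median log2 ratio of all of them was -0.04. Among the 788 genes of similar length, 72352 to 121025 counted bases, 25 had a higher ratio.

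On CD30L+ CHO cells, the receptor gene differed little from CHO cells. The ratio was 1.03 (1.01 to 1.05), a log2 ratio of 0.04, above 77.4% of 7661 tested genes, whose median was -0.12. Scaling moves this value more than the counting interval does: with TMM factors, which shift all log2 ratios of this comparison by 0.21, it was 1.18, and centred on the all-gene median it was 1.11. A difference of the order of 1.03 was therefore within the effect of the scaling.

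The ratio under SM-164 divided by the ratio under CD30L was 1.25 for TNFRSF8 (1.22 to 1.29), formed from 4 separate libraries. It was 1.12 with TMM factors, so the size of this difference depends on the scaling while its direction was kept under each of the 7 alternatives. Among 27 tested genes of CD30 signalling, the counting interval of the same quotient lay below 1 for 16, above 1 for 4 and included 1 for 7. The same split over all tested genes was not computed, and the list was chosen with earlier results of these data known. The split therefore does not show whether TNFRSF8 differs from genes at large. A change of scaling multiplies every quotient by the same factor, so these counts hold for library totals only. The 16 include TRAF1 at 0.511 (0.477 to 0.547), BIRC3 at 0.635 (0.608 to 0.663) and NFKBIA at 0.481 (0.421 to 0.549). The 4 above 1, as TNFRSF8 was, were TRAF2 at 1.47, TRAF5 at 1.396, MAPK14 at 1.31 and MAP3K14 at 1.26 (1.19 to 1.34).

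The largest difference of TNFRSF8 lay between the experiments. On CHO cells it was at 0.518 of its DMSO level (0.508 to 0.528), a log2 ratio of -0.91, where the median of 8081 tested genes was 0.06. Among the 808 genes of similar length, 3 had a lower ratio. Short genes were low in this comparison, with a median of -0.54 in the shortest decile (at most 3552 counted bases). At the length of TNFRSF8, 80831 bases, the running median was 0.10. Co-culture and the run of the experiment cannot be told apart here, and in bulk RNA fewer cells of a kind and less RNA per cell cannot be told apart either.

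**Figure D3:**
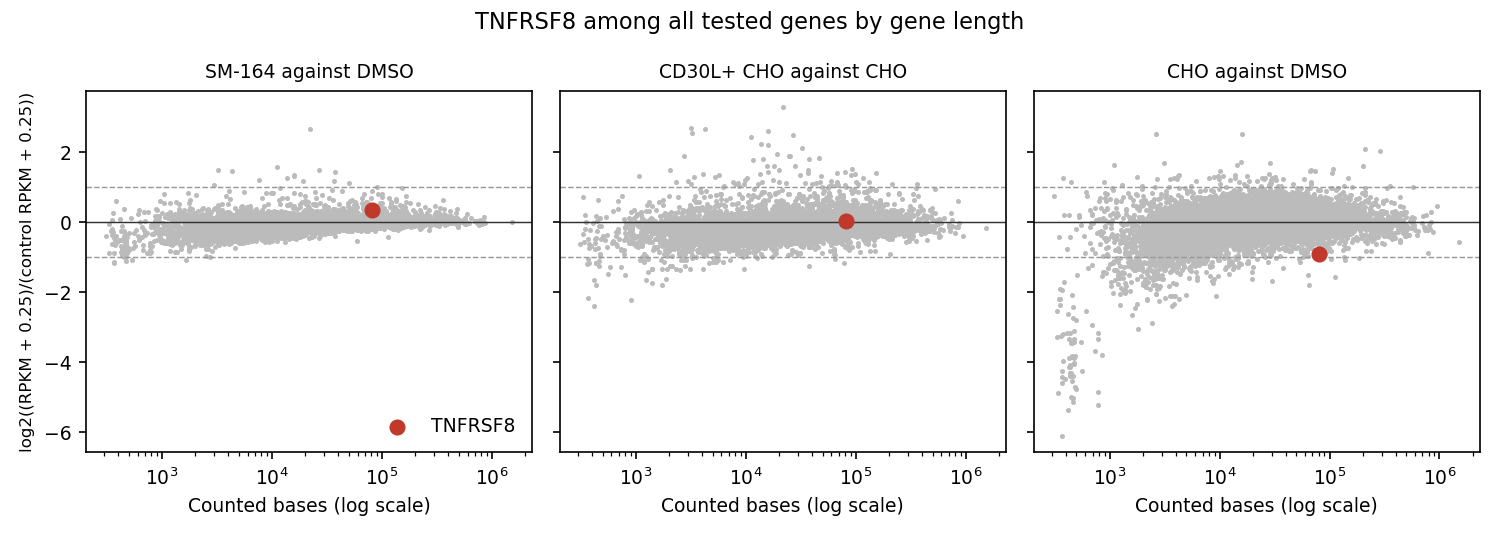
Log2 ratio of every tested gene (grey points) against its counted bases (log scale) in 3 comparisons, with TNFRSF8 in red and dashed lines at 2-fold. TNFRSF8 lies at 0.36, 0.04 and -0.91 and in the third panel sits at the lower edge of genes of its length.

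The tested lymphoma markers were lower on CHO cells than with DMSO, as was MUC1 under the RPKM minimum, and ALK was not. Of the 5 markers tested, TNFRSF8 among them, 0 lay 2-fold or more above DMSO and 3 lay 2-fold or more below it, where 0.879% of all tested genes were that much higher and 4.52% that much lower. These 3 were the perforin gene PRF1 (log2 ratio -1.28), the transcription factor gene BATF3 (-1.24) and the granzyme gene GZMB (-1.06). IL2RA, which encodes the interleukin 2 receptor alpha chain, was at an RPKM of 24.3 with DMSO and 14.7 on CHO cells. The median over the 5 markers was -1.06. ALK, which stayed under the RPKM minimum, was at 0.0980 with DMSO and 0.137 on CHO cells, a ratio of 1.399 (1.33 to 1.47). MUC1 had 42 reads on CHO cells and 62 with DMSO, a ratio of 0.458 (0.302 to 0.689). PRF1, GZMB and MUC1 have 5428, 3272 and 4407 counted bases, near or within the shortest decile described above. The part of length in their ratios was not tested.

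The genes most like TNFRSF8 over the 4 libraries were sought by Euclidean distance of log2(RPKM + 0.25), each gene centred on its own mean. Of 7860 genes, the nearest included AIM1 (distance 0.17), KCTD3 (0.19), SPATA3 (0.22) and SLC15A4 (0.23), against a median distance of 1.16. AIM1 had an RPKM of 2.78 with DMSO, 3.38 with SM-164, 1.502 on CHO cells and 1.504 on CD30L+ CHO cells. With 4 libraries, 10 genes lay within a distance of 0.25, and likeness over so few libraries is a description only.

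Within the TNF receptor superfamily, TNFRSF8 stood first of 29 genes in each library. It made up 56.3% of the summed RPKM of the 29 with DMSO, 59.9% with SM-164, 35.9% on CHO cells and 29.6% on CD30L+ CHO cells. The next was TNFRSF10B, a receptor of the death ligand TRAIL, in the first 3 libraries, at 1.75, 2.11 and 2.75. On CD30L+ CHO cells the next was the death receptor gene FAS at 4.84 (4.71 to 4.97), close under TNFRSF8 at 5.10.

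The lead of CD30 over the next receptor, per length, therefore narrowed from 5.47-fold with DMSO and 5.86-fold with SM-164 to 1.81-fold on CHO cells and 1.05-fold on CD30L+ CHO cells. Of the 7 receptor genes tested between the co-cultures, FAS was the 1 at least 2-fold higher, with a log2 ratio of 1.88, and 0 were 2-fold lower. All tested genes gave 1.71% at 2-fold in either direction, and the other 22 receptor genes did not pass the RPKM minimum.

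**Figure D4:**
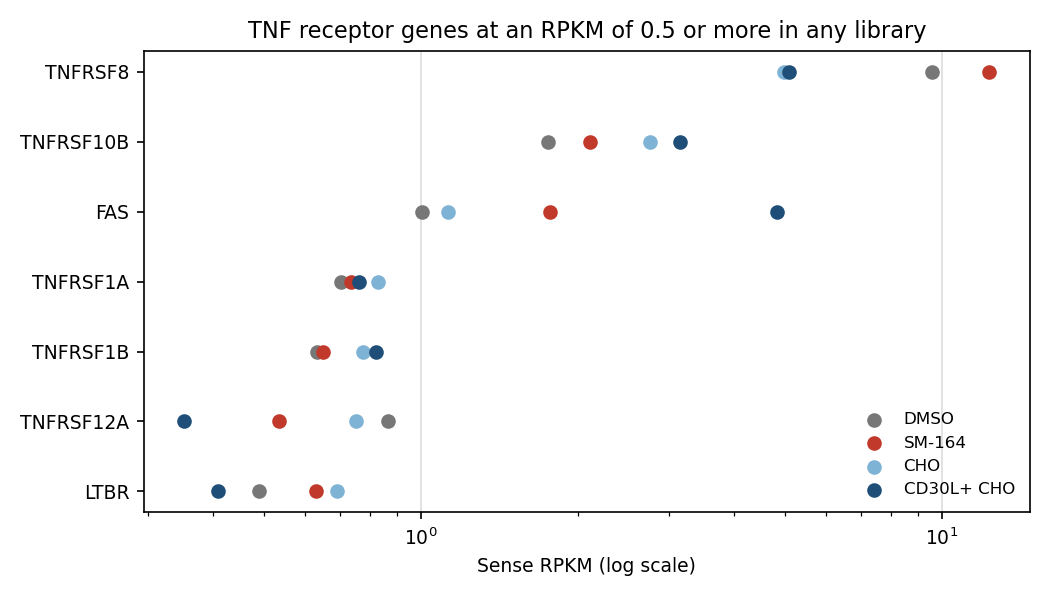
Sense RPKM (log scale) of the TNF receptor genes that reached 0.5 in any library, 1 point per library. TNFRSF8 is rightmost in all 4, and the FAS point on CD30L+ CHO cells (4.84) reaches nearly as far as that of TNFRSF8 (5.10).

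Among 18 TNF ligand genes, TNFSF8 ranked 13 with DMSO, last with SM-164 at 0 reads (tied with LTA and LTB), 15 on CHO cells and 9 on CD30L+ CHO cells. The highest ligand gene was TNFSF10, which encodes TRAIL, at 7.11 with DMSO, 12.6 with SM-164, 5.89 on CHO cells and 18.5 on CD30L+ CHO cells. At its highest, TNFSF8 made up 0.242% of the summed RPKM of the ligand genes. TNFSF8 did not pass the RPKM minimum in any comparison. Of the 5 ligand genes that did between the co-cultures, TNFSF10 (log2 ratio 1.61) and TNF (1.89) were at least 2-fold higher, beside 0.979% of all tested genes, and TNF passed the minimum through the CD30L+ CHO library alone.

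Downstream of the receptor, the adaptors came first. TRAF1, an adaptor without a RING domain that is itself an NF-kB target, was at an RPKM of 1.78 with DMSO, 5.46 with SM-164, 3.36 on CHO cells and 20.1 on CD30L+ CHO cells. TRAF3, which holds the kinase NIK for degradation, was at 1.21, 1.98, 1.39 and 2.83. TRAF2, which brings the c-IAP proteins to the complex, was at 0.768, 0.926, 0.641 and 0.527, and TRAF5 at 1.71, 1.52, 1.46 and 0.931. TRAF1 and TRAF3 were thus highest in the library with CD30L, while TRAF2 and TRAF5 were lowest there.

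The ubiquitin ligases and kinases differed gene by gene. BIRC3, which encodes c-IAP2, was at 6.29 with DMSO, 40.7 with SM-164, 5.37 on CHO cells and 54.8 on CD30L+ CHO cells. BIRC2, which encodes c-IAP1, was at 2.60, 3.12, 3.52 and 9.27. MAP3K14, which encodes NIK, was at 2.52, 2.68, 2.39 and 2.02. The IKK kinase genes CHUK and IKBKB had co-culture ratios of 0.995 (0.921 to 1.07) and 1.09 (1.05 to 1.12), so the genes of the kinases differed less than those of the c-IAP proteins.

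Among the NF-kB subunits, RELB and NFKB2 form the non-canonical dimer after processing of p100. RELB was at an RPKM of 0.585 with DMSO, 1.63 with SM-164, 0.798 on CHO cells and 2.72 on CD30L+ CHO cells. NFKB2 was at 0.968, 1.31, 0.601 and 1.55. NFKB1 had log2 ratios of 0.68 with SM-164 and 1.27 with CD30L, and RELA, the main canonical subunit, -0.12 and 0.27. The feedback inhibitor genes NFKBIA and TNFAIP3 had log2 ratios of 2.56 and 2.61 with CD30L, and CYLD, a deubiquitinase that restrains the pathway, 1.07.

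Of 28 genes listed for CD30 signalling, 27 were tested in each comparison. With SM-164, 6 were at least 2-fold higher and 0 lower, against 0.19% of all tested genes on the higher side, 0.0634% on the lower side and 0.254% in either direction. With CD30L, 10 were at least 2-fold higher and 0 lower, against 0.979% of all on the higher side, 0.731% on the lower side and 1.71% in either direction. The medians over the 27 were 0.21 and 0.27 on the log2 scale, beside -0.04 and -0.12 for all tested genes. The list was chosen with earlier results of these data known, so its counts are no independent evidence of direction.

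All 6 genes at 2-fold with SM-164 were among the 10 with CD30L: BIRC3, NFKBIA, NFKBIE, RELB, TNFAIP3 and TRAF1. They are 6 of 6 of the first set and 6 of 10 of the second. The 2 comparisons share no library, but the list was chosen with earlier results of these data known. The overlap is therefore no independent agreement. Over all tested genes, 15 genes were at 2-fold in both, which are 15 of the 20 with SM-164 and 15 of the 131 with CD30L. The other 4, BIRC2, NFKB1, NFKB2 and CYLD, had log2 ratios of 0.24, 0.68, 0.36 and 0.44 with SM-164. Between CHO and DMSO, 0 of the 27 were at least 2-fold higher and 1, the kinase gene MAPK3, was lower, against 5.4% of all in either direction. MAPK3 rests on 75 and 149 reads over 1979 counted bases.

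**Figure D5:**
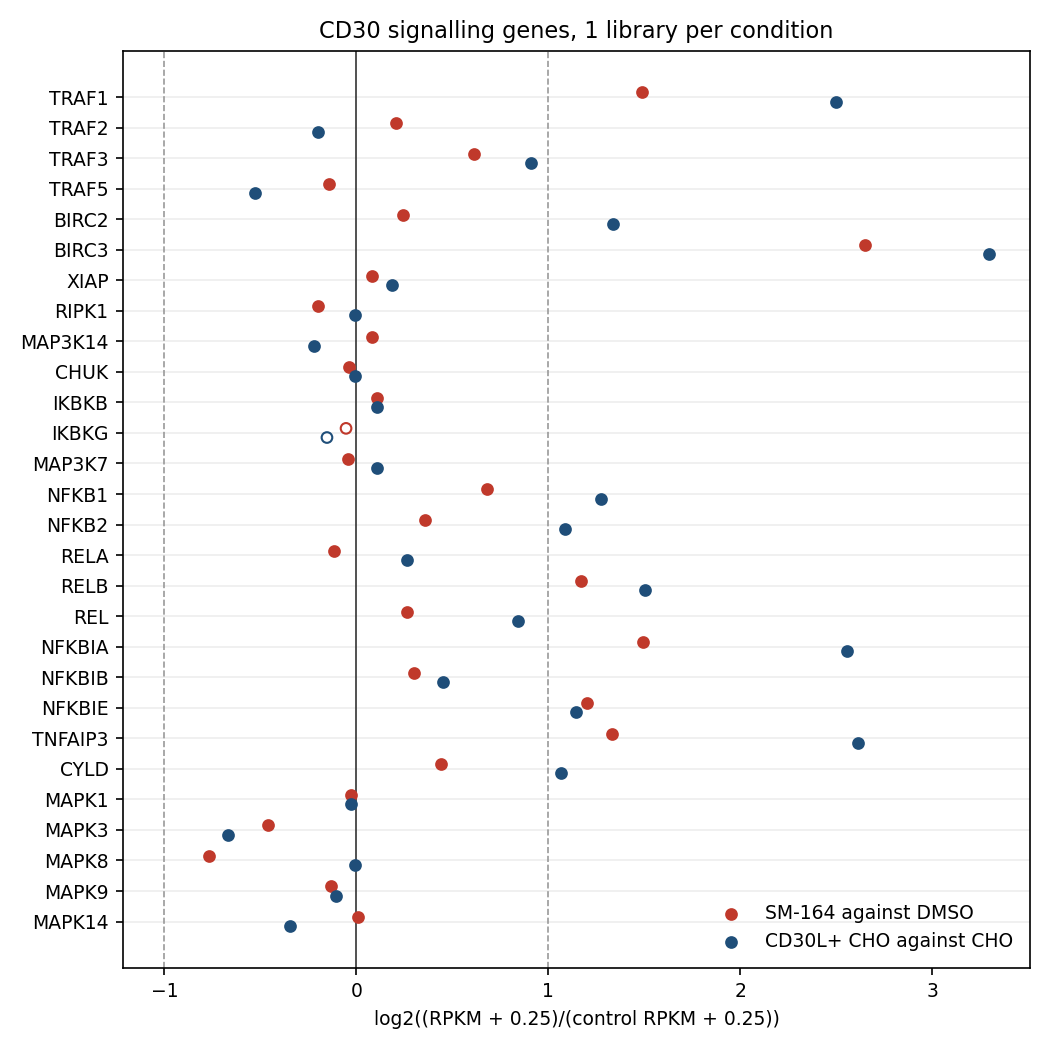
Log2 ratios of the 28 CD30 signalling genes with SM-164 (red) and with CD30L (blue), 1 library per condition; dashed lines mark 2-fold and open points the gene under the RPKM minimum. The 10 genes beyond the right line with CD30L include all 6 with SM-164, and 0 genes lie beyond the left line.

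Factors linked to transcription of CD30 in lymphoma were read at uneven levels. JUNB, an AP-1 subunit known to act on the CD30 promoter, was at an RPKM of 22.2 with DMSO, 22.3 with SM-164, 2.45 on CHO cells and 0.974 on CD30L+ CHO cells. BATF3 was at 12.1, 19.8, 4.94 and 13.3, and BATF at 1.499, 2.91, 2.12 and 8.50. IRF4 was at 24.2, 26.9, 15.8 and 16.6. Over all tested genes, 56.2% had a log2 ratio of CHO to DMSO above 0. Of the 8 factors, 3 were above 0 and 5 below 0. JUNB, BATF3, IRF4, SP1 (-0.40) and STAT3 (-0.26) were the lower ones, 2 of them by 2-fold or more, beside 4.52% of all tested genes. JUNB, with 1816 counted bases, lay in the shortest decile of this comparison, whose median was -0.54. The part of length in its ratio was not tested. YY1 (0.87), BATF (0.44) and ETS1 (0.05) were above 0.

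Between the co-cultures, 2 of these 8 factors were at least 2-fold higher, BATF and BATF3, and 1, JUNB, was lower, beside 1.71% of all tested genes in either direction. JUNB has 1816 counted bases, and genes of the shortest decile had a median log2 ratio of -0.27 in this comparison; the part of length was not tested. The remaining factors had log2 ratios with CD30L of -0.08 for SP1, -0.01 for YY1, 0.38 for STAT3 and 0.73 for ETS1. With SM-164, 0 of the 8 reached 2-fold, beside 0.254% of all tested genes, and BATF came nearest at 0.85.

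The surface proteases ADAM10 and ADAM17 can release CD30 from the cell. ADAM10 was at an RPKM of 1.53 with DMSO, 1.496 with SM-164, 1.55 on CHO cells and 1.38 on CD30L+ CHO cells. ADAM17 was at 1.27, 1.44, 1.27 and 1.66. Neither reached 2-fold in any comparison.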

How the data were processed

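Bru-seq reads of 4 libraries were processed by the authors, per the submitters' processing notes, on genome build hg19 with TopHat 1.4.1 and Bowtie 0.12.8, besides bedtools 2.16.2 and CASAVA 1.8.2; which gene annotation served was not given in the sources used here. The authors deposited, for 44807 features per library, an estimated count of reads over exons and introns, a signal per base (that count over the counted bases) and an RPKM. The scale behind each deposited RPKM, recovered from the deposited signal, is the library total. Within 0.001, 60.6% to 70.8% of non-zero estimated counts were whole; counts were rounded for intervals. A symbol with several sense entries kept the longest, which dropped 186 of 22984. Ratios are rounded counts over library totals, with exact conditional (Clopper-Pearson) 95% intervals; levels have Poisson intervals. PCR reads are not independent molecules. With 1 library per group no p-value was computed. A gene was tested if it had 300 or more counted bases and its RPKM averaged at least 0.5, and set against 2-fold on log2(RPKM + 0.25), which understates low genes.

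The members, the 9 gene lists and the limits were chosen with earlier results of these data known. Named were both members, pathway genes by role, family genes at 2-fold or among the 5 highest, nearest neighbours and the 5 genes most like TNFRSF8, of which 1 is not reported here; genes sharing the pattern of TNFSF8 under looser limits were named after their values were seen. Alternatives were other library scalings (TMM, edgeR 4.0.16 in R 4.3.3), rounding, antisense subtraction, a length trend over 301 genes, and other pseudocounts, minimums, folds and read limits. The procedure was run on simulated counts with counting error only, so that run does not cover variation between repeats, scaling or gene length. Intervals came from scipy 1.17.1, figures from matplotlib 3.10.9 and tables from pandas 2.3.3 with numpy 2.4.6, under Python 3.11.15. Sense features held 78.4% to 79.6% of library reads.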

Additional observations from a re-analysis of the deposited data

Results flagged for a closer look

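Among TNFRSF8, TNFSF8 and the genes of CD30 signalling, transcription and shedding, 2 genes had counting intervals on opposite sides of 1 between experiments. These intervals use library totals, and whether they exclude 1 depends on the scaling. The share of all tested genes with this pattern was not computed, and the difference was not tested. TRAF2, the adaptor of the c-IAP proteins, had a ratio of 1.21 with SM-164 and 0.821 with CD30L, and the latter was 0.947 with TMM factors. MAP3K14, which encodes NIK, had 1.07 with SM-164 and 0.845 with CD30L, and the latter was 0.974 with TMM factors.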

How the results depend on the processing

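No paired analysis was possible because each condition has 1 library, and for the same reason no library could be left out. TNFRSF8 kept its direction in all 3 comparisons under each of 7 alternatives. Where its ratio left the counting interval, the SM-164 ratio was 1.33 with TMM factors and 1.33 with the all-gene median set to 0; the CD30L ratio was 1.18, 1.11 and, with the length trend subtracted, 1.08; the ratio of CHO to DMSO was 0.480, 0.497 and 0.483; and the SM-164 ratio over the CD30L ratio was 1.12, 1.19 and 1.19. These moves follow from the scalings themselves. The ratio of TNFSF8 ran from 99.7 to 116 under 5 alternatives and could not be given with antisense reads subtracted, since CHO then had fewer than 0 reads.

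The 20 genes at 2-fold with SM-164 became 11 with a pseudocount of 1 and 149 at 1.5-fold; the 131 with CD30L became 58 and 583, and the 436 between CHO and DMSO 227 and 1438. The 57.3% of calls that were higher with CD30L was 77.9% with TMM factors, 69.7% with the median at 0 and 80.0% with the length trend subtracted, but 46.7% with a pseudocount of 0.1, 48.4% with no RPKM minimum and 34.5% at 1.5-fold; between CHO and DMSO, 16.3% was 37.1% with the trend subtracted, and with SM-164 75.0% was 100% with it and 41.6% at 1.5-fold. Of the CD30 signalling genes, the 10 with CD30L became 6 with a pseudocount of 1, and the 1 between CHO and DMSO became 0 with it, 0 with the length trend subtracted and 4 at 1.5-fold. The 1 gene with the pattern of TNFSF8 became 5 with at most 10 reads elsewhere and 6 with at least 10 on CD30L+ CHO cells. Depth limits TNFSF8 in the 3 libraries with 0 or 1 read.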
